A study of Mus musculus with 2 samples.

Results

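The genes described here are the small nucleolar and small Cajal body RNA genes that carry a Snord, Snora or Scarna symbol. They were taken from the annotation fields of the transcript names in the deposited tables: a gene was kept where its symbol began with one of those 3 prefixes and its gene type was snoRNA or scaRNA. The rule found 149 of 55536 annotated genes, of which 98 were Snord, 42 were Snora and 9 were Scarna genes. They carry 146 symbols, since Snora43, Snora16a and Snord80 each have 2 gene models. One further gene with such a symbol, Snord43, was typed as a miRNA in the annotation, so the rule left it out, and it had no counts. The other 1409 snoRNA and scaRNA genes in the tables served only as a comparison.

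Total RNA came from the heart tissue of 2 male mice at 25 days of age; their strain, B6CASTF1/J, is an F1 hybrid. Each library was made from 300 ng of RNA with added ERCC spike-ins, and the labels give replicates 1 and 2 as biobank animals 3 and 4, although both carry the same donor identifier. There is 1 library per heart and 1 group, with no treatment or second tissue, so no groups were compared and no p-value is given. Heart tissue holds several cell types, and in such samples fewer cells of a type and less RNA per cell cannot be told apart.

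Box C/D RNAs (Snord) guide the 2′-O-methylation of ribosomal RNA, and box H/ACA RNAs (Snora) guide the conversion of uridine to pseudouridine, each by base pairing with its target inside a protein particle. Small Cajal body RNAs (Scarna) carry C/D boxes, H/ACA boxes or both, and guide the same modifications on the small nuclear RNAs of the spliceosome in the Cajal body. Most of these RNAs in mammals are cut from the introns of longer host transcripts, many of which encode ribosomal proteins or are noncoding host genes, and a few members, such as U17 (Snora73), U8 (Snord118), U13 (Snord13) and U22 (Snord22), take part in the maturation of ribosomal RNA precursors.

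The sequences below are those of the members on which the values turn, from the GENCODE M21 transcripts on GRCm38 (mm10). The first pair holds one end each of the 2 members with the most counts in the gene tables, and shows box C and box D letters (TGATGA and CTGA) in capitals.
Scarna10 (bases 1 to 100 of 325): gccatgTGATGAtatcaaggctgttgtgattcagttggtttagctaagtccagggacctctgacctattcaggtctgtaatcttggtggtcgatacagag
Scarna2 (bases 315 to 414 of 414): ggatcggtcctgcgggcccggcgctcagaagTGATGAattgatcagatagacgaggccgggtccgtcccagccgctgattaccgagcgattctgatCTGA

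The Snora73 pair is shown with the terminal ACA in capitals, because these 2 are near copies that split counts between them.
Snora73a: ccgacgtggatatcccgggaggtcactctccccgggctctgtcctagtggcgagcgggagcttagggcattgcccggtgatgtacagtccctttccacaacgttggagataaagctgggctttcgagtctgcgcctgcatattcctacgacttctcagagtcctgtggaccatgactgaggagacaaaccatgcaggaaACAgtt
Snora73b: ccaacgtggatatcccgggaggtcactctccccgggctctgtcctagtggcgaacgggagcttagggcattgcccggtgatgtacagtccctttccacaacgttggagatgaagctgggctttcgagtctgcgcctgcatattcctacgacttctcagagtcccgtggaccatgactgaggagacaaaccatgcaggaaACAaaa

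The box C/D members follow, with TGATGA and CTGA in capitals. The first 3 had counts, and the last 2 are shorter than 100 bases and stand for the many that received none.
Snord15a: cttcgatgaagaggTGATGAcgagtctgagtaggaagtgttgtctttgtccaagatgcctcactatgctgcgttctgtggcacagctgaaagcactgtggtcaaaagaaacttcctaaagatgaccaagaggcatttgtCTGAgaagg
Snord15b: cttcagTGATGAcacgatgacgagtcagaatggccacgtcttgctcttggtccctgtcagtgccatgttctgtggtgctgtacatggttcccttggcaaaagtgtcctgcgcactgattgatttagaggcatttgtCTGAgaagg
Snord17: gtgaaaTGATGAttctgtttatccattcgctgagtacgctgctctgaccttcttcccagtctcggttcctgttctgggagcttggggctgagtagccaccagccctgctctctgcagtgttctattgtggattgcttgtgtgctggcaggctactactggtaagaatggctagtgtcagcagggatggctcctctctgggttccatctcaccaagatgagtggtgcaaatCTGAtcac
Snord116l1: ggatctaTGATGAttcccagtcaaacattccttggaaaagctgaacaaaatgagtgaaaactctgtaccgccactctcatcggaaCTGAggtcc
Snord59a: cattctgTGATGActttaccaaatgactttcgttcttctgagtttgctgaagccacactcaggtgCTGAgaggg

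The family names matched the letters at the ends of the transcripts. TGATGA, searched as written on the transcript strand in the first 25 bases, was found in 70 of 98 Snord genes (71.4%), 0 of 42 Snora genes and 4 of 9 Scarna genes, against 0.865% of all annotated transcripts in a window of the same length. CTGA in the last 25 bases was present in 97 of 98 Snord genes, 6 of 42 Snora genes and 6 of 9 Scarna genes, against 11.7% of all transcripts. ACA in the last 6 bases was present in 39 of 42 Snora genes (92.9%), 5 of 98 Snord genes and 4 of 9 Scarna genes, against 7.90% of all transcripts. CTGA and TGATGA share the letters TGA, so windows that overlap in a very short transcript can hold both on shared bases. The shortest member has 64 bases, so the 2 windows of 25 bases do not overlap in any member.

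How long a member is set whether it could be counted at all. The first deposited quantification, a gene table with an estimated count and a TPM (a level divided by length and scaled to the library) for each gene, gives each gene an effective length 99 bases shorter than its annotated length, and 0 for genes of 99 bases or fewer. All 2398 such genes in the table had a count of 0. Among the members, 87 of 98 Snord genes and 2 of 9 Scarna genes fell in that class, so their zeros carry no information on their level. The median length was 84 bases for Snord (64 to 238), 132.5 bases for Snora (121 to 205) and 140 bases for Scarna (70 to 414), and 60 of the 149 members (40.3%) were longer than 99 bases.

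**Figure D1:**
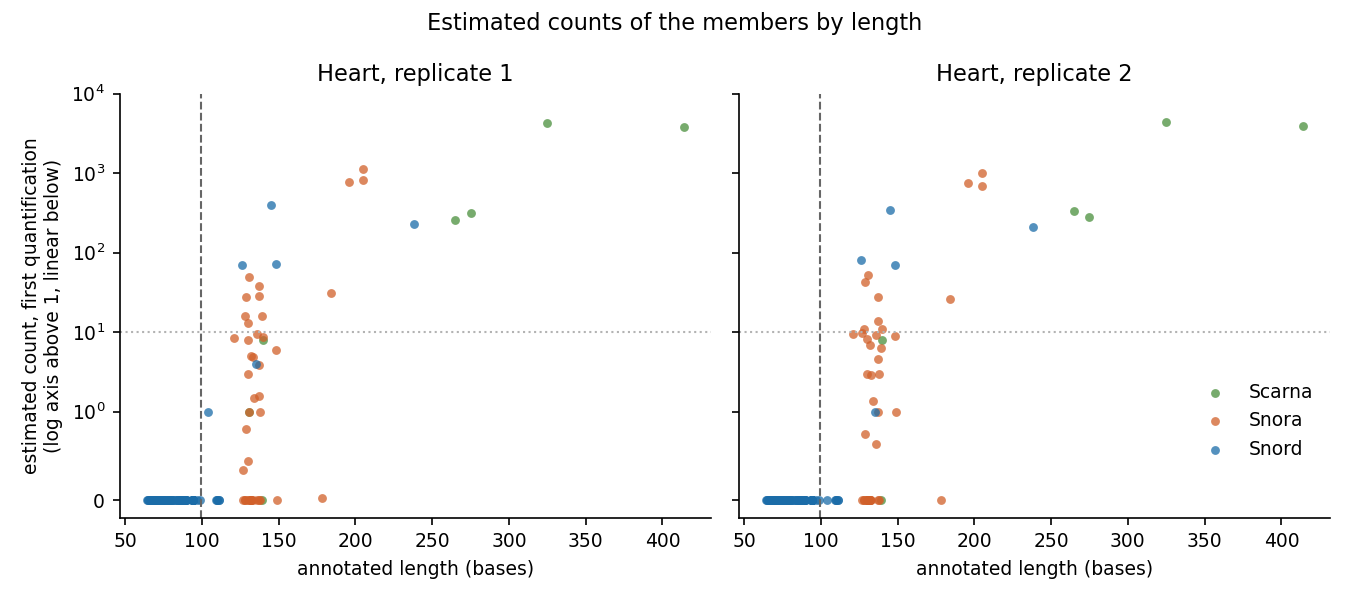
Estimated count in the first quantification (vertical axis, logarithmic above 1) against annotated length in bases (horizontal axis) for the 149 members, one panel per heart, with one point per gene coloured by family. The dashed line marks 99 bases, below which all 89 members are at 0, and the dotted line marks 10 counts; the 2 points highest in both panels are Scarna10 (325 bases) and Scarna2 (414 bases).

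A member was called measurable where it had at least 10 estimated counts in both hearts. That held for 17 of 149 members (11.4%), namely 4 Snord, 9 Snora and 4 Scarna genes. They made up 28.3% of the 60 members longer than 99 bases, beside 28.7% of all annotated genes of that length and 3.67% of the other snoRNA and scaRNA genes of that length. A further 27 members had some counts in at least 1 heart but missed the minimum, and 105 had none in either heart: the 89 short ones, and 16 longer ones (5 Snord, 10 Snora and 1 Scarna gene). At a level of 1 TPM or more in both hearts there were 29 members (4 Snord, 20 Snora and 5 Scarna genes). They were 19.5% of the 149, beside 21.3% of all genes and 3.97% of the other snoRNA and scaRNA genes. Among genes longer than 99 bases the shares were 48.3% of members, 22.2% of all genes and 5.4% of the other snoRNA and scaRNA genes. For a gene of 140 bases such as Scarna3a, 3 counts already amount to 2.24 TPM in replicate 1, so 1 TPM lies under the 3-count floor there.

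All members together held 12342 estimated counts of 38253821 gene counts in replicate 1, and 12323 of 40655101 in replicate 2, which is 0.0313% ± 0.00138 (SD, n = 2). Scarna10 and Scarna2 alone held 66.0% ± 1.83 of the members' counts, and the 6 members with the highest counts held 89.9%. By family, Scarna genes held 70.9% ± 2.06, Snora genes 23.1% ± 1.65 and Snord genes 5.97% ± 0.408 of them. The share of the Snord family is that of 11 genes, since the other 87 could not receive counts.

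Among the Cajal body RNAs, Scarna10 had the highest level of any member in the first quantification, whereas in the second it had 1 and 0 counts and Scarna2 stood first. Scarna10, known as U85, carries both box types and guides the modification of the U5 small nuclear RNA. It lies within the span of Ncapd2 (chr6:125186359-125186683, minus strand, mm10), the gene of a condensin subunit. Scarna10 had 4225 counts in replicate 1 and 4412 in replicate 2, or 571.77 and 555.38 TPM (mean 564 ± 11.6, SD, n = 2). Ncapd2 itself stood at 6.68 and 9.59 TPM.

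Scarna2, a C/D box RNA that guides methylation of the U2 small nuclear RNA, was next and has no host gene on its strand (chr3:108554338-108554751, minus strand, mm10). Scarna2 had 3761 and 3881 counts, or 365.13 and 350.48 TPM (358 ± 10.4, SD, n = 2). In the first quantification the level of Scarna10 in TPM was 1.58 ± 0.0132 times that of Scarna2 (n = 2 hearts), while the ratio of their counts was 1.13 ± 0.0095, the difference being the division by length.

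The other 2 measurable Cajal body RNAs stood far lower. Scarna6 had 259 and 332 counts, or 47.71 and 56.89 TPM, and lies within Atg16l1, an autophagy gene, at 10.4 TPM. Scarna13 had 315 and 282 counts, or 54.73 and 45.58 TPM, and lies within the noncoding gene Snhg10 at 0.775 TPM. The hearts changed places between these 2 genes, and the deposited TPM intervals, whose level no source used here states, overlapped between the hearts for both. Of the remaining Cajal body RNAs, Scarna3a had 8 counts in each heart and Scarna8 had 1 and 0, Scarna3b had none, and 2 were too short to be counted.

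The H/ACA members with the highest levels were the Snora73 pair and Snora74a. Snora73a and Snora73b are the 2 annotated copies of U17, which acts in the processing of the 18S ribosomal RNA; both lie within Snhg3 (Snora73a at chr4:132352775-132352979, Snora73b at chr4:132352322-132352526, minus strand, mm10). Snora73b had 1117 and 1005 rounded counts, or 322.38 and 269.58 TPM (296 ± 37.3, SD, n = 2). Snora73a had 821 and 684 rounded counts, or 236.85 and 183.57 TPM (210 ± 37.7, SD, n = 2). In both hearts the b copy was the higher, by 1.36 times in replicate 1 and 1.47 times in replicate 2. The 2 sequences shown above are identical at 198 of 205 bases (96.6%), so the split of reads between them rests on few positions and each value is uncertain, whereas their sum does not depend on it. Both copies overlap Gm17300 on the other strand.

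Snora74a, a box H/ACA RNA known as U19, had 777 and 758 rounded counts, or 245.10 and 222.22 TPM (234 ± 16.2, SD, n = 2). Its host, the noncoding gene AC121821.1, stood at 2.56 TPM, and the whole of Snora74a is also contained in an exon of one of that host's transcripts.

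The remaining 6 measurable H/ACA members lay between 9.93 and 47.0 TPM on average. Snora68 had 50 and 52 rounded counts, or 47.66 and 46.28 TPM. Snora44, which lies in Snhg12, had 28 and 43 rounded counts, or 28.30 and 40.40 TPM. Snora21, which lies in the ribosomal protein gene Rpl23, had 38 and 28 counts, or 30.58 and 20.96 TPM. The deposited intervals of the 2 hearts overlapped for each of these 3.

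The lowest 3 had under 32 counts in every heart. Snora52, in the ribosomal stalk gene Rplp2, had 22.94 and 10.22 TPM and the widest spread of the 17 (SD 54.2% of the mean). Snora78, in Snhg9, had 16 and 11 counts, or 16.87 and 10.79 TPM, and overlaps the ribosomal protein gene Rps2 on the other strand. Snora23, in Ipo7, the gene of a nuclear import receptor, had 31 and 26 counts, or 11.15 and 8.70 TPM.

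Just outside the minimum were other H/ACA members with counts in both hearts. Snora61 had 13.14 and 8.21 estimated counts, Snora7a had 8.79 and 10.83, Snora26 had 8.57 and 9.61, and Snora5c had 9.39 and 9.33. Snora43 is split over 2 overlapping gene models of 139 and 127 bases: the first had 16 and 6.27 counts, the second 0 and 9.73. Their sum was 16 in both hearts, so the symbol as a whole would pass the minimum.

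The 4 measurable C/D members were Snord15b, Snord22, Snord17 and Snord15a. Snord15a and Snord15b, the 2 copies of U15, both lie within Rps3, a ribosomal protein gene (Snord15b at chr7:99479563-99479707, Snord15a at chr7:99482785-99482932, minus strand, mm10). Snord15b had 399 and 343 rounded counts, or 265.14 and 211.91 TPM (239 ± 37.6, SD, n = 2). Snord15a had 71 and 70 counts, or 44.31 and 40.64 TPM (42.5 ± 2.60, SD, n = 2).

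With the same host gene, Snord15b was 5.60 ± 0.544 times as high as Snord15a in TPM (n = 2 hearts). Unlike the Snora73 pair, these 2 are distinct in sequence, with 93 identical bases over 150 aligned columns (62.0%), and the order was the same in both hearts. Snord15b is wholly contained in an exon of the transcript Rps3-204, which thus holds its whole sequence. Snord15a is not contained in any annotated exon of another gene.

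Snord22, or U22, lies in Snhg1, a noncoding gene that hosts several box C/D RNAs; it had 71 and 80 rounded counts, or 80.07 and 83.89 TPM (82.0 ± 2.70, SD, n = 2). Snord17, the longest C/D member at 238 bases, lies within Snx5, a sorting nexin gene (chr2:144265979-144266216, minus strand, mm10), and had 227 and 207 counts, or 49.94 and 42.36 TPM (46.2 ± 5.36, SD, n = 2). The order of these 2 in TPM is opposite to that of their counts, because Snord22 is divided by an effective length of 27 bases and Snord17 by one of 139. Counts per base of annotated length put Snord17 in rank 9 and Snord22 in rank 10, in place of ranks 11 and 7. By either measure Scarna10, Scarna2 and Snora73b were the first 3 of the 17, the place of Snora73b resting on the uncertain split with Snora73a.

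A pair of C/D members that act in ribosomal RNA maturation and are long enough to be counted were at or under a few counts. Snord118, or U8, had 4 and 1 counts, and Snord13, or U13, had 1 count in replicate 1 and 0 in replicate 2. Snord13 has an effective length of only 5 bases, so that single count became 6.12 TPM, and 3 counts would stand for 18.3 TPM.

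**Figure D2:**
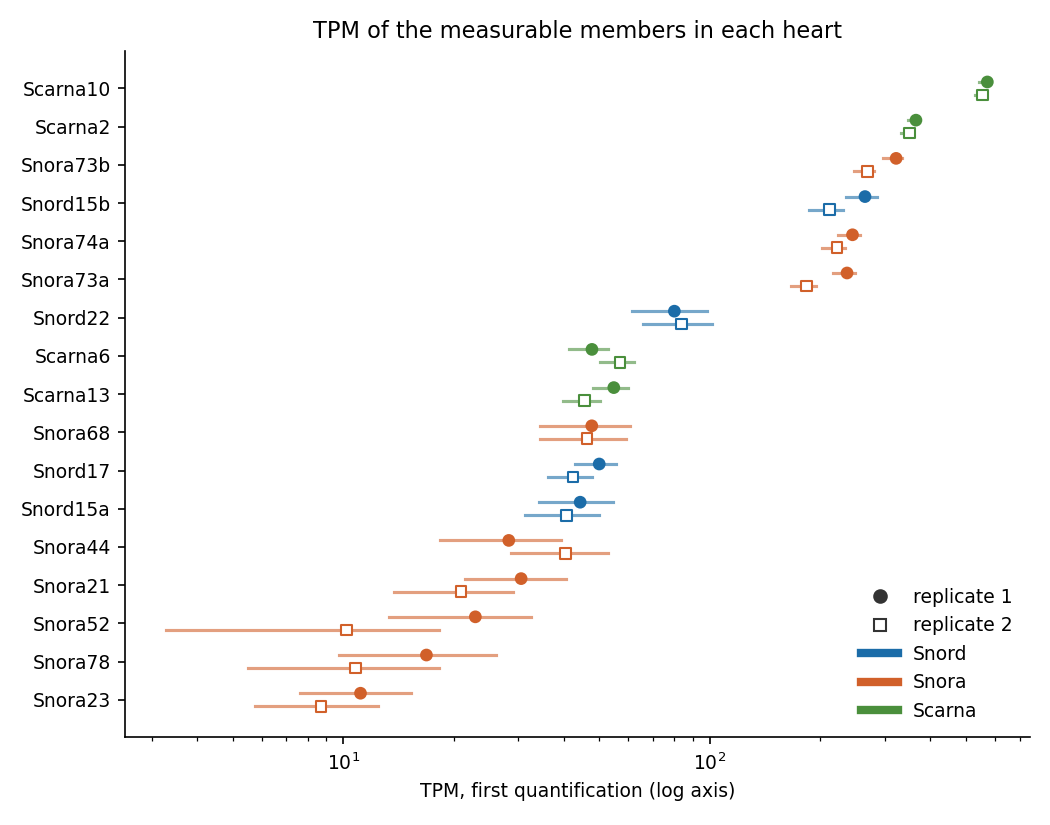
TPM in the first quantification (logarithmic axis) for the 17 measurable members, ordered by mean TPM, with filled circles for replicate 1 and open squares for replicate 2. Lines are the deposited TPM intervals of each heart. They do not overlap for Snora73b, Snora73a and Snord15b and overlap for the other 14 members. The share over all genes was not counted, and the split of reads between Snora73a and Snora73b is uncertain.

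Sorted by mean TPM, the 17 members formed an upper set of 6 between 210 and 564 TPM and a lower set of 11 between 9.93 and 82.0 TPM. Within the upper set, Scarna10 and Scarna2 each stood apart from their neighbours in both hearts. Snora73b was also above the next members in both hearts, but its level rests on the uncertain split of reads with Snora73a. Snord15b (211.91 to 265.14 TPM), Snora74a (222.22 to 245.10) and Snora73a (183.57 to 236.85) overlapped over the 2 hearts and their order is not resolved. In the lower set Snord22 stood above the rest in both hearts in TPM, whereas Scarna6, Scarna13, Snora68, Snord17 and Snord15a overlapped between 40.64 and 56.89 TPM. The SD over the 2 hearts ranged from 2.06% to 54.2% of the mean among the 17, with a median of 12.6%.

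The largest family of near copies could not be measured. The 17 Snord116l genes, 94 bases each, lie in tandem at chr7:59861731-59904848 (mm10) within Snhg14, and hold only 4 different sequences, 14 of them being identical to one another. Snord116 RNAs come from an imprinted region linked in humans to Prader-Willi syndrome. Each was under the length limit and listed at 0, while Snhg14 was at 2.80 and 2.51 TPM. The annotation had no Snord115, Snord113 or Snord114 symbols among the members.

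Some members at 0 lie in abundant host genes and others in low ones. Of the 148 members examined for hosts, 139 lie within a longer gene on the same strand, in 89 different host genes; 87 of the 139 lie in protein-coding genes. Ribosomal protein genes, counted with Rack1, host 33 members in 24 genes, and the noncoding Snhg genes, Gas5, Dancr and Zfas1 host 39. Of the 89 members too short to be counted, 24 lie in 15 host genes at 100 TPM or more. Others lie in low hosts, such as the Snord116l genes in Snhg14 at 2.80 and 2.51 TPM. The share of all genes at 100 TPM or more was not counted. Snord59a lies in Atp5b, which encodes the beta subunit of the ATP synthase, at 3428 and 3325 TPM (chr10:128084143-128084216, plus strand, mm10). Snord14c, Snord14d and Snord14e lie in the chaperone gene Hspa8 at 431 TPM, and Snord37 lies in the elongation factor gene Eef2 at 344 TPM.

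The 16 longer members without counts also lie in host genes, most of which had counts. Snora41 lies in Eef1b2 at 130 TPM, Snora20 in the chaperonin gene Tcp1 at 69.2 TPM, Snora75 in the nucleolin gene Ncl at 35.8 TPM and Snora3 in Rpl27a at 35.2 TPM. The host of Snora35, the serotonin receptor gene Htr2c, was at 0 TPM in both hearts. For the 8 H/ACA and Cajal body members among these 16 that lie in no annotated exon of another transcript, 3 counts amount to 2.13 to 3.16 TPM, and for the 5 C/D members to 7.11 to 9.17 TPM. Snora24, Snora3 and Snora75 lie wholly inside exons of host transcripts that had counts, such as Snhg8-202 with 12.6 and 4.32, so no such limit is given for them. These floors and the intervals on counts cover counting error only.

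Measurable members and their hosts stood in different orders. For the 15 with a host examined, host levels ran from 0.775 to 311 TPM with a median of 8.14. Of the 15 members, 11 were above their host, but all had passed the minimum of 10 counts. Over a short effective length that minimum can exceed a low host, so part of this order was set by the filter. For Snora78, 3 counts already amount to 3.16 TPM in replicate 1, while its host Snhg9 had 3 counts and 1.09 TPM there. Scarna10 (564 TPM) and Snora73b (296 TPM) lie in hosts at 8.14 and 5.46 TPM, whereas Snora52 (16.6 TPM) and Snora21 (25.8 TPM) lie in hosts at 311 and 163 TPM. Across these 15 genes Spearman's rho between member and host TPM was -0.23, and Pearson's r of the log2 values was -0.21; the points share libraries, and Snora73a and Snora73b, like Snord15a and Snord15b, share a host. TPM divides by an effective length of as little as 27 bases in the members, so the ratio of a member to its host carries that scale.

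**Figure D3:**
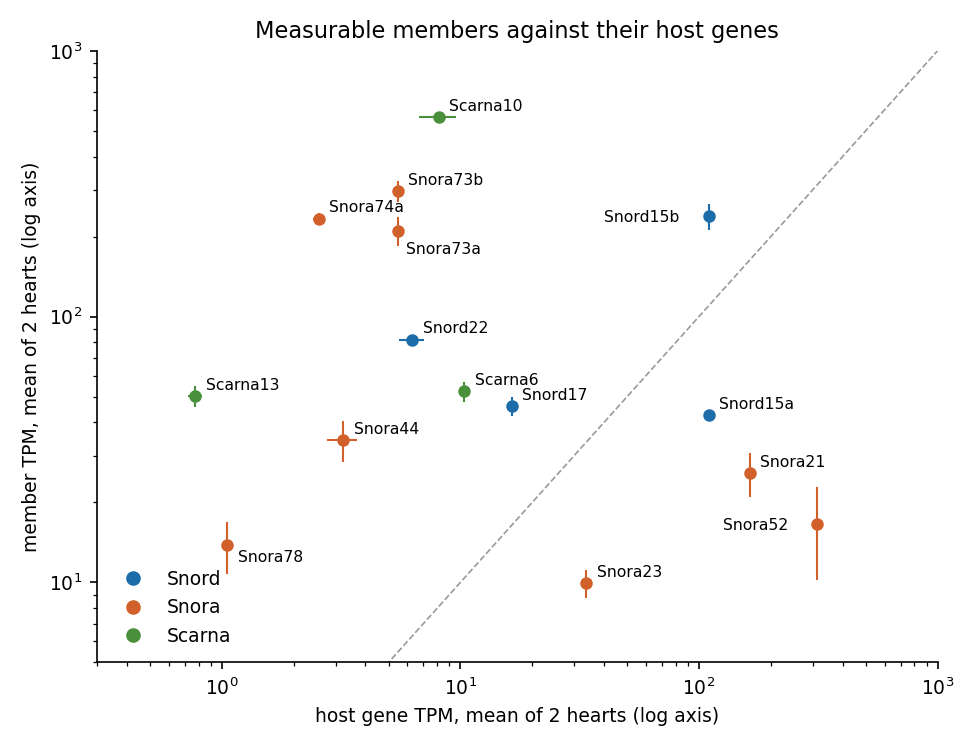
Mean TPM of the 15 measurable members with a host gene examined (vertical axis, logarithmic) against the mean TPM of the host (horizontal axis, logarithmic); bars span the 2 hearts and the dashed line marks equal levels. The 11 members above the line include Scarna10, and the 4 below it are Snora23, Snord15a, Snora21 and Snora52.

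The second deposited quantification, which gives estimated counts and TPM per transcript, found almost none of these RNAs. Scarna2 was the only member to reach 10 counts in both hearts there, with 1397 and 1479 counts, or 378 and 396 TPM. Scarna10, first in the gene table with 4225 and 4412 counts, had 1 count in replicate 1 and 0 in replicate 2. The other 15 measurable members had none in either heart, and the members' share of gene counts was 0.00373% in place of 0.0313%.

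Other short genes also passed less often there. Of all genes that passed 10 counts in both hearts in the gene table, 0 of 76 genes of 100 to 199 bases and 3 of 61 genes of 200 to 299 bases (4.92%) also passed in the second quantification. The share was 36 of 102 (35.3%) at 300 to 399 bases, 275 of 376 (73.1%) at 400 to 599 bases and 14424 of 14649 (98.5%) at 600 bases or more. At 414 bases, Scarna2 is the one measurable member in the class from 400 to 599 bases.

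**Figure D4:**
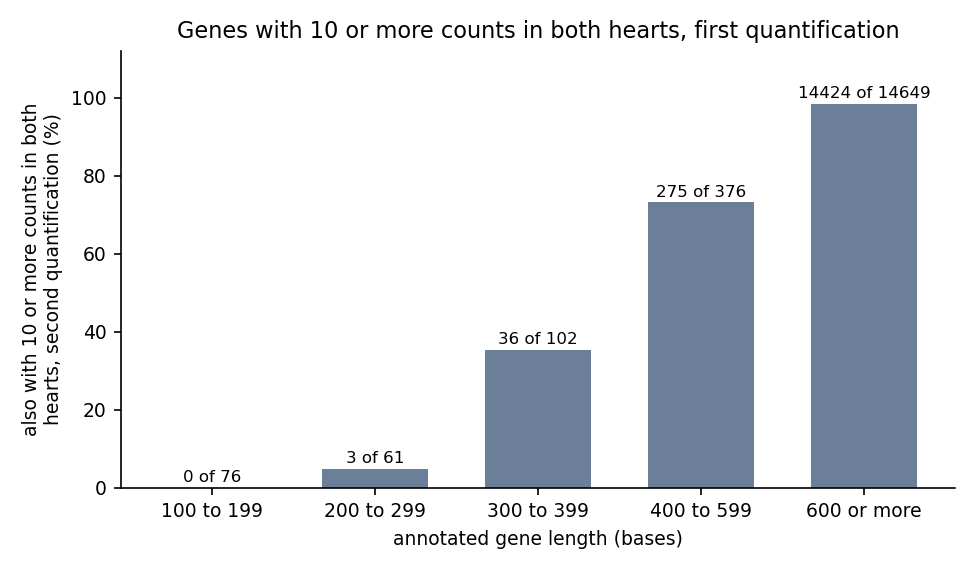
Percent of genes with 10 or more counts in both hearts in the first quantification that also have 10 or more in both hearts in the second (vertical axis, from 0), by annotated gene length in bases (horizontal axis), with the numbers above the bars. The share goes from 0 of 76 genes at 100 to 199 bases to 14424 of 14649 at 600 bases or more; all measurable members except Scarna2 are shorter than 400 bases.

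Longer transcripts that contain all or part of a member's sequence often had more counts in the second quantification than in the first. Which reads made up either count was not tested. Of the 16 measurable members examined for this, 9 share at least 100 matched bases at 90% identity or more with a transcript of another gene, and 5 lie wholly inside an exon of such a transcript. The transcript of AC121821.1 that contains Snora74a had 5.14 and 2.40 counts in the first quantification and 869 and 841 in the second, where Snora74a had 0. The transcript Rps3-204, which contains Snord15b, had 15.35 and 28.72 counts in the first and 627 and 552 in the second. Snhg1-213, one of 3 transcripts that contain Snord22, had 1.91 and 0 counts in the first and 83.9 and 94.6 in the second.

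The transcript Snhg12-204, which contains both Snora44 and Snora61, had 0 and 16.81 counts in the first quantification and 69.5 and 89.7 in the second, more than Snora44 had in the first. For Snora52 the values ran the other way, since Rplp2-205 had 67.48 and 106.87 counts in the first and 41 and 30 in the second. The 8 measurable members with such host transcripts have 7 different sets of them, since Snora73a and Snora73b share one. Summed counts of a set were higher in the second quantification in both hearts for 5 of the 7 and lower in both for 1. The sets of Scarna10 and of the Snora73 pair match only part of the member. The share over all transcripts was not counted, so these sets are not set apart from other transcripts.

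For the Snora73 pair and Scarna10 the matching transcripts had few counts in both quantifications. Snhg3-202, which shares 159 bases with Snora73a, had 54.0 and 57.3 counts in the second quantification, against 1938 and 1689 for the pair in the first. A retained-intron transcript of Ncapd2 and the transcript of Gm28967 match 237 and 281 of the 325 bases of Scarna10; the former had 0 and 16.1 counts in the second quantification and the latter 0. For the 5 members inside exons, a read from the small RNA and one from the longer transcript cannot be told apart by sequence alone, so these values are uncertain.

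Between the 2 hearts no abundant member differed by as much as 2-fold. Counts were scaled with TMM factors (a scaling that centres most genes) and compared as the log2 ratio of replicate 2 over replicate 1, among genes with a mean of at least 1 CPM (counts scaled to the library's gene total). Of 12908 such genes, 155 (1.2%) were at least 2-fold apart, and of the 12 members among them 0 were. The median log2 ratio was -0.17 over the 12 members and 0.01 over all genes compared. With 1 library a heart there is no replicate check, and the intervals below describe counting error in these libraries only.

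Of the 12 members, 10 were lower in replicate 2 and 2 were higher under TMM factors and under scaling by total gene counts. When spike-in totals set the scale, 11 were lower and 1 higher, but the median of all genes compared was then also lower, at -0.14. That median was 0.01 under TMM factors and 0.06 under total gene counts. The share of all genes lower in replicate 2 was not counted, and the Snora73 pair makes up 2 of the 12. Snora73a had 821 and 684 counts and a log2 ratio of -0.40 (95% exact binomial interval -0.55 to -0.25), which rests on the uncertain split of reads with Snora73b. The summed counts of the pair, 1938 and 1689, gave -0.34 (-0.43 to -0.24). Snord15b had -0.36 (-0.57 to -0.15), and Scarna13 had -0.30 (-0.54 to -0.06). Scarna6 was the highest at 0.22 (-0.02 to 0.46), and Scarna10 stood at -0.08 (-0.14 to -0.02). The interval lay below 0 for 7 of the 12 and included 0 for the other 5, while over all 12908 genes it lay below 0 for 16.6% and above 0 for 16.7%. How narrow an interval is depends on the counts behind it, and these members were not matched to other genes on counts.

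The 2 libraries also differed in genes of some other cell types. Summed TPM of 4 globin genes, markers of red cells, went from 46360 in replicate 1 to 23306 in replicate 2, and that of 3 adipocyte markers from 213 to 29.96. The 7 heart muscle markers were all present in both hearts, with a median of 3801 TPM, and none was 2-fold apart. Nor was any of the 4 fibroblast, 3 endothelial and 3 macrophage markers. Rn7s1 and Rn7s2, which encode the RNA of the signal recognition particle, each went from 81969 to 96403 TPM in the first quantification, and had 1.5 counts in both hearts in the second. The part of these differences in the members' ratios was not tested.

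With a looser filter, 10 counts in at least 1 heart, 22 members were compared and 3 gene models were past 2-fold, beside 787 of 16281 genes (4.83%). Snora52 had 28 and 14 rounded counts, a log2 ratio of -1.14 (-2.18 to -0.17). The other 2 were the overlapping models of Snora43, one with 16 and 6 counts and one with 0 and 10; their summed count was the same in both hearts. A ratio past 2-fold at this depth therefore rests on fewer than 30 counts a heart.

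**Figure D5:**
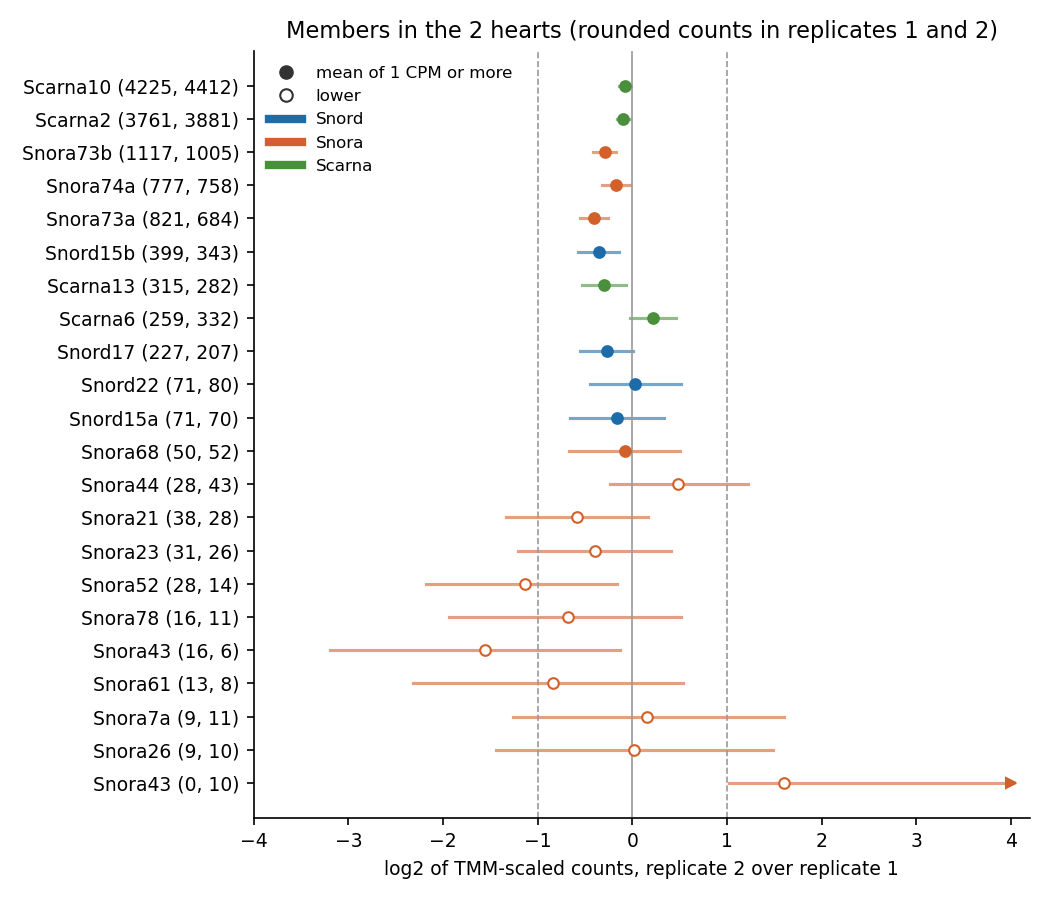
Log2 ratio of TMM-scaled counts, replicate 2 over replicate 1 (horizontal axis), for the 22 members with at least 10 counts in at least 1 heart, ordered by summed count; rounded counts of replicates 1 and 2 are in parentheses, and lines are 95% exact binomial intervals. Filled points have a mean of 1 CPM or more and all lie inside the dashed 2-fold lines; the 3 points outside are Snora52 and the 2 models of Snora43, the one with 0 counts drawn at the floor of 3 counts with no upper bound.

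Transcripts of the proteins that bind these RNAs were present in both hearts. All 4 genes of the core proteins of the C/D particle were above 1 TPM: the methyltransferase fibrillarin (Fbl) at 11.1 ± 0.566, Nop56 at 11.7 ± 1.58, Nop58 at 10.2 ± 0.827 and Snu13 at 17.5 ± 0.332 TPM (SD, n = 2). Of the H/ACA particle, the pseudouridine synthase dyskerin (Dkc1) was at 6.75 ± 0.149, Nop10 at 21.5 ± 1.03, Nhp2 at 5.82 ± 0.834 and Gar1 at 5.79 ± 1.20 TPM. None of these 8 was 2-fold apart between the hearts.

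Genes of Cajal body proteins were mostly at lower levels. Wrap53, which binds the Cajal body box of H/ACA-type scaRNAs, was at 1.15 and 1.65 TPM, and the scaffold protein coilin (Coil) at 1.76 ± 0.163 TPM. Smn1 was at 5.01, Nolc1 at 5.42 and Tgs1, which forms the trimethyl cap, at 3.12 TPM. Of 9 assembly factors of both particles, 8 reached 1 TPM in both hearts, with a median of 3.77 TPM, and Shq1, a chaperone of dyskerin, had 0.92 and 1.16 TPM. None of the 14 genes of these 2 lists was 2-fold apart between the hearts.

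Noncoding host genes were mostly low as well. Of 18 found by symbol, 14 were at 1 TPM or more in both hearts, and Gas5 was the highest at 19.5 ± 3.48 TPM. Among other structured small RNAs, those of about 300 bases were above every member in the first quantification: Rn7sk, which holds back the elongation factor P-TEFb, was at 15969 TPM, and the RNA subunits of RNase P (Rpph1) and RNase MRP (Rmrp) at 4238 and 1102 TPM. In the second quantification Rn7sk had 0 and 2 counts, Rpph1 had 4 and 5 and Rmrp had none, all below the 1397 and 1479 of Scarna2. Shorter ones were low, with the minor spliceosome RNAs Rnu12 (151 bases) at 11.6 TPM and Rnu11 (134 bases) at 1.25 TPM. Telomerase RNA (Terc), an H/ACA RNA of 423 bases in the length class of Scarna2, was at 0.94 and 0.97 TPM.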

How the data were processed

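Per the labels and the deposited text files, total RNA from 2 hearts was quantified on mm10 with GENCODE M21; no source used here names the programs. The authors deposited expected (estimated) counts, TPM and posterior means per gene and transcript (first quantification) and estimated counts and TPM per transcript (second quantification), which were summed per gene. The 26248 tRNA rows and 97 spike-ins were kept out of the totals.

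Members, lists and alternatives were chosen with earlier results of these data known. Those described singly are measurable ones, up to 10 with the highest mean TPM in each family, and those past 2-fold. Genes just outside the minimum were added after their values were seen. Some members with 0 or few counts are also named outside these rules, several of them beside the level of their host. Rounded counts were scaled with TMM factors from edgeR 4.0.16 in R 4.3.3 over all genes, and ratios carry exact binomial 95% intervals from scipy 1.17.1; the procedure was tested on simulated data. A gene with 0 counts was set to a floor of 3 counts (0.0784 CPM in replicate 1 and 0.0738 in replicate 2). Hosts are the smallest same-strand gene spans in GENCODE M21 that contain a member and are not small RNAs themselves. For 1 measurable member the host and shared sequence are not reported here, and it was left out of those comparisons. Shared sequence was searched with BLAST 2.17.0. Libraries held 38253821 and 40655101 gene counts, and the second quantification 37677065 and 39520407.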

Additional observations from a re-analysis of the deposited data

How the results depend on the processing

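The number of measurable members was 17, between 12 and 25 with a minimum of 30 or 5 counts, and between 18 and 19 with either heart left out. In the second quantification 1 member was measurable, 1 was at 1 TPM or more, and the members' share of counts was 0.00373% in place of 0.0313%. The share without either heart ran from 0.0303% to 0.0323%. The 29 members at 1 TPM or more became 17 when 10 counts in both hearts were also required, 42 with posterior mean TPM, and between 31 and 33 with either heart left out. The number of members 2-fold apart between the hearts stayed at 0 under each scaling run and became 3 with the looser count filter. Scaling by spike-in totals moved the median of all genes from 0.01 to -0.14. Mean TPM of all 17 measurable members moved beyond the SD over the hearts in the second quantification; with posterior means it did so for 1, Scarna10, at 552 TPM in place of 564. No paired analysis was possible because there is 1 group with 1 library per heart. Depth limits members with few counts, and the fixed reduction in effective length limits those near 99 bases.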
